A study of Mus musculus with 3 samples.

Results

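Macrophages that transcribe the C1q genes were selected from single-cell RNA-seq of CD45+ cells sorted from tumors that KP1 cells, a small-cell lung cancer line of mouse with mutant Rb and p53, formed under the skin. Members were chosen by their own UMI counts (UMIs are unique molecular identifiers, the deduplicated transcript counts): at least 200 detected genes, at most 20% mitochondrial UMIs, at least 5 UMIs summed over C1qa, C1qb and C1qc, under 4 over 6 T cell receptor complex genes, under 3 over Cd79a, Cd79b and Ms4a1, and under 3 over Mki67 and Top2a. Of 71909 barcodes that passed the first 2 limits, 9538 were members. Since C1q and the other gate genes chose the cells, their levels in members are descriptions. The labels call the sorted cells T cells, although the sort was for CD45, which all leukocytes carry.

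There were 3 groups with 1 library each. All mice were female B6129SF1/J (F1) and received 500000 KP1 cells. Mono-IL-10 is a monomeric engineered IL-10, a cytokine that signals mainly through STAT3. IL-10/2-Trikine joins it to an IL-2 part that brings in the IL-2 receptor beta chain, whose own signal runs through STAT5. Per the labels, doses of 3 µg of a cytokine were repeated at intervals of 2 days, starting on day 7, and tumors were collected on day 19. The combination joined IL-10/2-Trikine with 200 µg doses of anti-PD-1 antibody, the first on day 7 and the last on day 19 (days 11 and 15 in between). The protocol text does not itself limit the antibody to that group. The labels write mono-IL-10 as Supermono-10. No untreated library was analysed here, and the labels do not say how many mice a library came from. One library per group leaves no spread between replicates, so no test is given, and differences describe these libraries. Each interval is a 95% interval that covers counting error only, except those of list medians. The latter are order-statistic intervals over the ratios of a list's genes and cover the spread between genes.

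C1q is the recognition subunit of the classical complement pathway, and in many tumors it marks macrophages that clear dying cells and present antigen. Monocytes that enter a tumor lose Ly6c2, Ccr2 and Chil3 as they mature into such macrophages. IL-10 acts on macrophages through Il10ra and Il10rb, interferon-gamma from T and NK cells induces Cxcl9 and the Gbp GTPases, and IL-4 and IL-13 induce Retnla, Arg1, Mrc1 and Mgl2 through STAT6.

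Promoter sequences of 4 genes that appear below are shown because they carry short motifs bound by the factors just named. They come from RefSeq (GRCm38.p6) and cover the 250 bases before the gene start, 5′ to 3′ on the gene's strand. Capitals mark the motif: the core of the interferon-stimulated response element (ISRE, GAAANNGAAA on either strand) in Gbp2 and Socs1, the interferon-gamma-activated site (GAS, TTCNNNGAA) in Serpina3g, and the spacing that STAT6 favors (TTCNNNNGAA) in Retnla. In Socs1 2 ISRE matches overlap.
Gbp2 (chr3:142620413-142620662, + strand): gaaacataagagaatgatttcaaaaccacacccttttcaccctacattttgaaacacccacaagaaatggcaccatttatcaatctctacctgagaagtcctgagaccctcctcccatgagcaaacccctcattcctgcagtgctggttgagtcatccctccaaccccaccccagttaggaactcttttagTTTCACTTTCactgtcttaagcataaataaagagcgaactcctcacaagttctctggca
Socs1 (chr16:10785537-10785786, - strand): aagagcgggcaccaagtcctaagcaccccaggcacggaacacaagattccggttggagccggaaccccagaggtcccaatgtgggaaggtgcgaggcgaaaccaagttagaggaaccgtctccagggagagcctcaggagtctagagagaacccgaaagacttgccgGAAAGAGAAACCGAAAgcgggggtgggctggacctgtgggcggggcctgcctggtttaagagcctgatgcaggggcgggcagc
Serpina3g (chr12:104235897-104236146, + strand): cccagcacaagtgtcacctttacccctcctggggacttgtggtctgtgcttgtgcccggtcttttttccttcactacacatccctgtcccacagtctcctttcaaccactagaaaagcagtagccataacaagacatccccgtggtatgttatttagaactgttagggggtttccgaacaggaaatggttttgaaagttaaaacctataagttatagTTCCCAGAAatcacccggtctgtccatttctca
Retnla (chr16:48842359-48842608, + strand): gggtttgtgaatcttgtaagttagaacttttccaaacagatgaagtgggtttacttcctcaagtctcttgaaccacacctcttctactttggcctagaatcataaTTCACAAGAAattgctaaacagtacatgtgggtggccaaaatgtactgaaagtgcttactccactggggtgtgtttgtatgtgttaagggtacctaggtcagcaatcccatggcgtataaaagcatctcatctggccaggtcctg

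Over whole RefSeq promoter windows of 300 bases (250 before and 50 after the start), 3.44% of 32851 held the ISRE core, 8.30% the GAS and 6.95% the STAT6-type motif. Of the 21 interferon-gamma response genes with a window, 13 held the ISRE core, among them Gbp2 and Socs1, and 10 held the GAS. Of the 22 type I interferon genes with a window, 12 held the ISRE core, 4 the GAS and 5 the STAT6-type motif (22.7%). Of the 15 alternative activation genes with a window, 3 held the STAT6-type motif (20%). A match is a description of the letters and not a bound site.

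The C1q macrophages were less frequent in the IL-10/2-Trikine library than in either other library. They made up 3729 of 22235 kept barcodes (16.8%, exact interval 16.3% to 17.3%) with mono-IL-10, 1658 of 22707 (7.30%, 6.97% to 7.65%) with IL-10/2-Trikine and 4151 of 26967 (15.4%, 15.0% to 15.8%) with the combination. The share with IL-10/2-Trikine was 0.435 times that with mono-IL-10 (0.412 to 0.460), and the share with the combination was 2.11 times that with IL-10/2-Trikine (2.00 to 2.23). A share depends on all other sorted cells, and a lower share of macrophages and a higher share of other cells cannot be told apart. Leaving out barcodes with at least 3 UMIs over 12 KP1 tumor genes gave ratios of 0.445 and 2.08. C1q macrophages with at least 3 Mki67 and Top2a UMIs numbered 802, 450 and 777. The order is mono-IL-10, IL-10/2-Trikine and combination, as in every set of 3 values below. Barcodes with both C1q and T cell UMIs, which are not members, numbered 1703, 1179 and 1116, beside 3729, 1658 and 4151 members. No B cell or cycling limit was applied to these barcodes, so the T cell limit alone did not leave out all of them. Their number beside that of members differed between the libraries. Shares and ratios with them included were not computed.

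**Figure D1:**
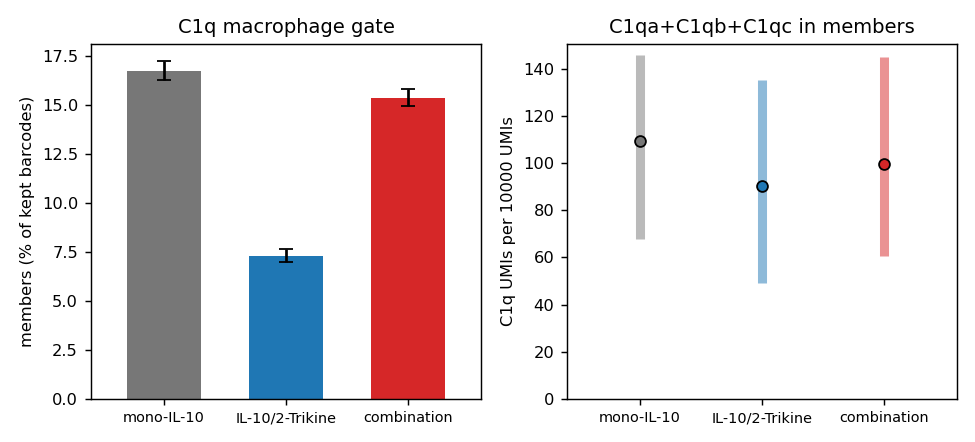
Left, C1q macrophages as a percentage of kept barcodes in each library (bars start at 0, whiskers are exact 95% binomial intervals). Right, C1q UMIs per 10000 UMIs in members (dot, median, and line, quartiles), which chose the members. The IL-10/2-Trikine library has the lowest share (7.30%) and the lowest median C1q (90.4 per 10000).

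Depth differed moderately between the libraries. Median UMIs per member were 6337, 5148 and 5113, and the members summed to 24673825, 9031990 and 22452681 UMIs. Levels are given as CPM, the gene's UMIs as a share of these sums, scaled to the same total in every library. The median mitochondrial share was 1.62%, 1.23% and 1.30%, and Malat1, a nuclear RNA, stood at 10849, 10541 and 11035 CPM. Between 137 and 180 kept barcodes were shared by each pair of libraries, under 0.8% of any library.

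The label of C1q macrophages was borne out by part of its markers. Of the gate genes, C1qa stood at 3195, 2735 and 3265 CPM. Ms4a7, a membrane protein of mature macrophages, stood at 643, 522 and 550 CPM and was detected in 78.9%, 67.7% and 70.0% of members, against 16.4%, 7.43% and 9.56% of the other kept barcodes. Apoe, the lipid carrier, was lower, at 492, 335 and 454 CPM, and was detected in 40.0%, 32.8% and 38.2% of members. Csf1r, the receptor for the macrophage growth factor, was detected in 61.8%, 48.2% and 50.1%. Vsig4, a complement receptor of resident macrophages, had 0 UMIs in the members of all 3 libraries, and Cd163, the hemoglobin scavenger receptor, stood at under 1 CPM (0.932, 0.332 and 0.401). Trem2, of lipid-associated macrophages, stood at only 10.5, 10.1 and 16.0 CPM.

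MHC class II genes were among the most abundant transcripts. Cd74, the class II invariant chain, stood at 10285, 9755 and 10231 CPM, and H2-Ab1 was detected in 94.7%, 91.7% and 93.5% of members thinned to 2000 UMIs, against 11.7%, 7.62% and 9.37% of T cell barcodes thinned alike. Il1b, the inflammatory cytokine, stood at 3829, 4817 and 4021 CPM and was detected in 80.7%, 81.1% and 80.5% of thinned members, against 7.71%, 6.11% and 5.81% of T cell barcodes. Thinning left out 264, 89 and 421 members of under 2000 UMIs. The median UMIs of the T cell barcodes were 4004.5, 3638.5 and 3705. Only the absence of 3 or more Mki67 and Top2a UMIs makes the cells resting: 74.4%, 75.6% and 77% of members had none. Cell cycle genes outside the gate stood higher with IL-10/2-Trikine than with mono-IL-10. Their median log2 ratio was 0.46 (0.29 to 0.60) for S phase genes and 0.45 (0.25 to 0.53) for G2/M genes, each with 19 of 20 genes above 0, and in the combination over IL-10/2-Trikine it was -0.04 (-0.20 to 0.07) and -0.10 (-0.31 to 0.07). Over the alternatives the medians over mono-IL-10 ran from 0.15 to 0.73 and from 0.20 to 0.85, lowest after subtracting free RNA, and in the combination that of G2/M genes ran from -0.55 to 0.68.

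Cells at the C1q limit had less Ms4a7 but more Csf1r than members as a whole. Csf1r stood at 232, 193 and 212 CPM in members with exactly 5 C1q UMIs, against 193, 157 and 174 CPM in all members. The macrophage gene Adgre1 stood at 102, 91.0 and 80.5 CPM, against 127, 98.2 and 99.1 CPM. Members with exactly 5 C1q UMIs numbered 99, 40 and 114 and had Ms4a7 at 66.2, 74.0 and 110 CPM, and barcodes with 4 C1q UMIs, outside the gate, had 117, 94.6 and 80.4 CPM. Members at 3 T cell UMIs numbered 21, 9 and 70, and barcodes at 4 numbered 12, 9 and 37. No T cell UMI was found in 74.6%, 76.2% and 64.2% of members, the lowest share in the combination. Members at 2 B cell UMIs numbered 271, 103 and 155, and barcodes at 3 numbered 90, 24 and 52. Members at 2 Mki67 and Top2a UMIs numbered 272, 115 and 255, and barcodes at 3 numbered 127, 70 and 91. At the B cell limit Ms4a7 stood at 789, 808 and 771 CPM inside and at 789, 854 and 855 CPM outside. Cd79b, a B cell receptor component, stood at 52.2, 54.6 and 41.5 CPM in members, while Cd79a stood at 1.26, 0.111 and 0.267 CPM.

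Ccr2 and Chil3, both monocyte genes, varied together among the members of each library. Across thinned members (3465, 1569 and 3730 cells of 1 library each), log UMIs of Ccr2, the receptor that draws monocytes into tissue, were correlated with those of Chil3 (Pearson r = 0.44, 0.47 and 0.54) and inversely with C1qa (r = -0.45, -0.49 and -0.43). C1qa is a gate gene, so this and the bands of C1q level that follow describe the chosen cells and support nothing further. Il1b was correlated with H2-Ab1 (r = 0.33, 0.42 and 0.38). Among members with under 50 C1q UMIs per 10000, Ccr2 stood at 662, 817 and 630 CPM, and among those with over 100 it stood at 31.9, 34.3 and 26.7 CPM. The low-C1q end held 17.1%, 25.6% and 18.9% of members, and the share was highest with IL-10/2-Trikine. The limits of 50 and 100 were chosen after the data were seen.

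The IL-10/2-Trikine library against the mono-IL-10 library asks what the IL-2 part adds to IL-10. Of 13243 genes with at least 20 UMIs in the pair, 418 were at least 2-fold higher with IL-10/2-Trikine (3.16%) and 334 at least 2-fold lower (2.52%). The median log2 ratio over all genes was 0.00, with 50.7% of genes above 0. Genes of alternative activation were prominent at the upper end: 8 of 15 measured genes of that list were at least 2-fold higher, 2 were at least 2-fold lower, and the list's median log2 ratio was 1.27 (order-statistic interval -0.28 to 2.13).

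Ccl24, an eosinophil-attracting chemokine, had the highest ratio of the genes ranked. It stood at 9.69 CPM with mono-IL-10 (239 UMIs), 153 CPM with IL-10/2-Trikine (1382 UMIs) and 164 CPM with the combination (3692 UMIs). Among members it was thus low in 1 library and high in both that contain IL-10/2-Trikine. The ratio over mono-IL-10 was 15.8 (13.8 to 18.2), and over the alternatives its log2 value ran from 2.44 to 6.74. At equal depth it was detected in 0.462%, 3.76% and 3.83% of members, against 0.119%, 0.314% and 0.166% of T cell barcodes. Without thinning the shares of members were 0.885%, 5.97% and 5.47%.

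Arginase 1 (Arg1), which breaks down arginine, stood at 16.2, 70.7 and 107 CPM, a ratio of 4.38 (3.85 to 4.97) for IL-10/2-Trikine over mono-IL-10. Fabp5, a fatty acid-binding protein, stood at 158, 497 and 484 CPM, a ratio of 3.13 (3.00 to 3.27), and was detected in 9.96%, 21.3% and 16.8% of thinned members, against 6.06%, 9.06% and 9.37% of T cell barcodes. Chil3, a chitinase-like protein of monocytes and of alternatively activated macrophages, stood at 105, 278 and 392 CPM. Nrg1, a growth factor for ErbB receptors, stood at 71.6, 197 and 218 CPM. Like Ccl24, these genes were low with mono-IL-10, and in the combination they stood near or above their level with IL-10/2-Trikine. Over the alternatives the log2 ratio over mono-IL-10 ran from 1.125 to 3.44 for Arg1, 1.12 to 1.91 for Fabp5 and 0.76 to 1.61 for Nrg1.

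A second group had its highest CPM with IL-10/2-Trikine and stood lower in the combination. Retnla, a secreted protein induced by IL-4 and shown above with its promoter, stood at 36.8, 192 and 99.6 CPM. Mgl2, a lectin receptor, stood at 10.5, 52.7 and 16.5 CPM. Mmp12, macrophage elastase, stood at 27.8, 126 and 67.0 CPM. Ear2, a ribonuclease, stood at 27.0, 87.7 and 33.9 CPM, and Mrc1, the mannose receptor CD206, stood at 52.0, 147 and 89.0 CPM. Ccl8, a monocyte-attracting chemokine, stood at 72.0, 202 and 155 CPM. The ratios of these genes over mono-IL-10 lay between 2.80 (Ccl8, 2.62 to 2.99) and 5.20 (Retnla, 4.8 to 5.64).

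**Figure D2:**
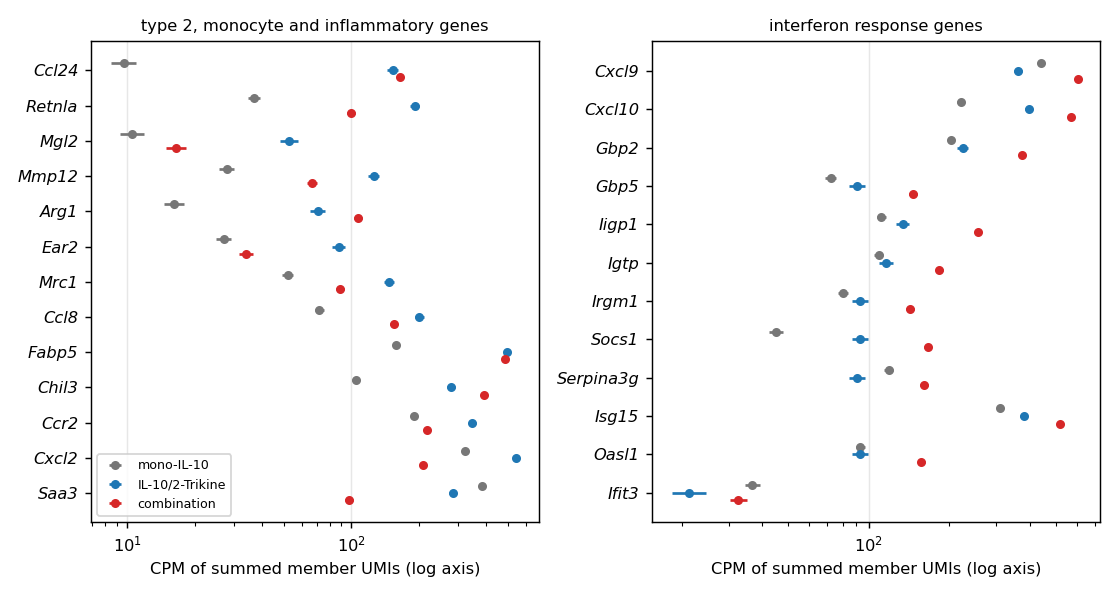
CPM of summed member UMIs (log axis) for genes of alternative activation, monocytes and inflammation (left) and of the interferon responses (right) in the 3 libraries, with exact Poisson 95% intervals, some smaller than the dot. Ccl24 separates mono-IL-10 (9.69 CPM) from both other libraries (153 and 164 CPM), and Cxcl9 and Gbp2 are highest in the combination (607 and 376 CPM).

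The levels of several of these genes rested on very few cells. The 10 members with the most Retnla UMIs held 98.5%, 77.3% and 92.1% of all its UMIs, and only 21, 39 and 29 members had any. For Mgl2 the 10 highest members held 78.1%, 66.6% and 70.1%, for Arg1 85.2%, 58.5% and 41.9%, for Mmp12 74.8%, 51.3% and 37.7%, and for Ccl24 82.4%, 57.0% and 36.1%. The counting intervals treat UMIs as independent and do not cover this clustering. By contrast, the 10 highest members held 4.0%, 8.58% and 3.62% of Gbp2 UMIs and 7.98%, 15.4% and 6.24% of Cxcl9 UMIs. Mycl, a MYC family factor, was also ranked among the highest (16.9, 58.6 and 20.7 CPM), but 10 members held 88.8% of its UMIs with IL-10/2-Trikine, and without members with 2 or more UMIs of other lineages its log2 ratio was -0.05.

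**Figure D3:**
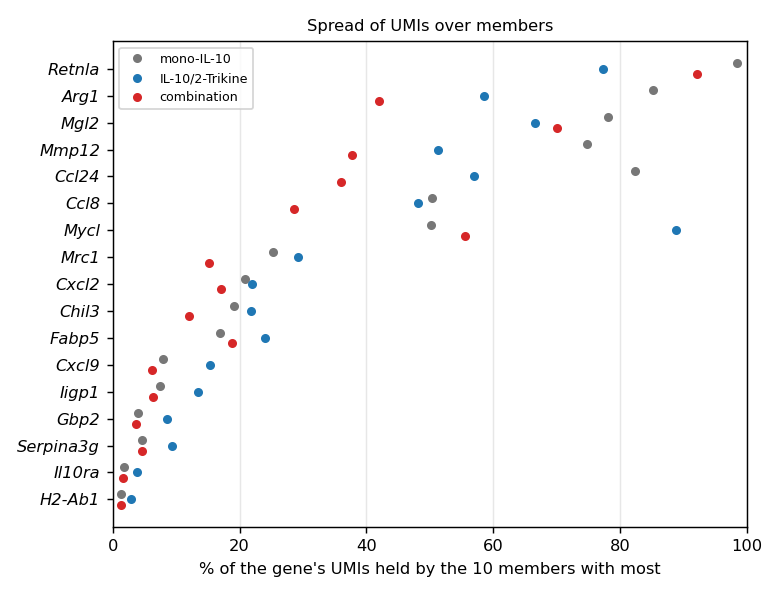
Percentage of each gene's UMIs held by the 10 members with the most, in each library. Most Retnla UMIs lie in 10 cells (77.3% to 98.5%), whereas those of Gbp2 are spread (3.62% to 8.58%).

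Some of these genes were detected in the same cells. Log UMIs of Retnla and Mgl2 were correlated with r = 0.20, 0.49 and 0.65 across thinned members, and those of Ccl24 and Arg1 with r = 0.34, 0.43 and 0.42, whereas Ccl24 and Mgl2 had r = 0.02, 0.09 and 0.15. Of 7 genes (Ccl24, Retnla, Mgl2, Ear2, Mrc1, Arg1 and Mmp12), at least 1 was detected in 8.54%, 15.5% and 13.5% of thinned members, and 3 or more in 0.491%, 3.76% and 1.64% (17, 59 and 61 cells). This set and these pairs were chosen after their values were seen. Most members of each library, 91.5%, 84.5% and 86.5%, had none of the 7 at this depth.

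Monocyte genes stood higher in the IL-10/2-Trikine library, with a list median of 0.86 on the log2 scale (0.35 to 1.28), 12 of 13 genes above 0 and 4 at least 2-fold higher. Ccr2 stood at 190, 346 and 217 CPM, Plac8 at 1035, 1873 and 1515 CPM, and Thbs1, a matrix glycoprotein, at 63.8, 160 and 124 CPM. The exception was Saa3, an acute-phase protein, at 383, 283 and 97.6 CPM. In bands of C1q level, within which C1q still varied, the list's median was smaller, 0.23 under 50 C1q UMIs per 10000, 0.30 from 50 to 100 and 0.60 over 100. The alternative activation list had a median of 0.87 (0.12 to 2.41), 1.09 (-0.52 to 2.55) and 1.18 (-0.15 to 1.99) in those bands, and Ccl24 stood at 1.02 CPM with mono-IL-10 and 109 CPM with IL-10/2-Trikine among members with over 100. In that band Retnla stood at 0.872 and 1.41 CPM and Mgl2, which is not in the list, at 0.436 and 1.41 CPM, near absence in both libraries. Under 50, Ccl24 stood at 38.0 and 207 CPM, Retnla at 190 and 494 CPM and Mgl2 at 30.6 and 133 CPM. From 50 to 100, Retnla stood at 0.805 and 124 CPM.

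**Figure D4:**
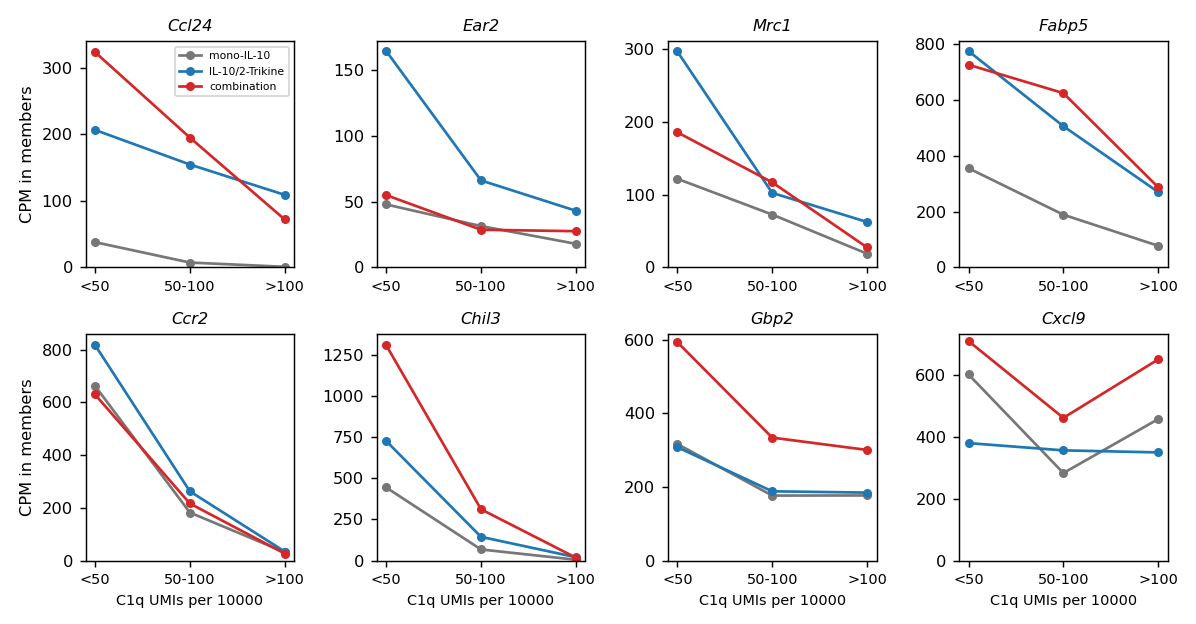
CPM of 8 genes in members split by C1q UMIs per 10000 (under 50, 50 to 100, over 100), by library. Ccr2 is lower at higher C1q in all 3 libraries (630 to 817 CPM under 50, 26.7 to 34.3 CPM over 100), Ccl24 stays apart from mono-IL-10 in every band and Gbp2 is highest in the combination in every band.

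Inflammatory cytokines and chemokines had a median log2 ratio of 0.49 (0.18 to 0.85), with 21 of 25 measured genes above 0 and 5 at least 2-fold higher. In the 3 C1q bands the median was 0.29 (-0.11 to 0.55), 0.34 (0.26 to 0.80) and 0.24 (-0.14 to 0.62). Cxcl2, a neutrophil-attracting chemokine, stood at 321, 545 and 208 CPM, and Ccl6 at 192, 383 and 329 CPM. Cxcl10, a T cell-attracting chemokine, stood at 221, 396 and 569 CPM. At the lower end of this list were Cxcl16 (385, 295 and 338 CPM) and Cxcl9 (440, 361 and 607 CPM). Matrix and growth factor genes had a median of 0.70 (-0.09 to 1.33), with 8 of 19 at least 2-fold higher, and over the alternatives the median ran from 0.22 to 0.84.

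Il10ra, the ligand-binding IL-10 receptor chain, stood at 208, 178 and 179 CPM, and Il10rb, the shared chain, at 99.9, 108 and 126 CPM. Stat3 stood at 375, 357 and 390 CPM. The IL-10 and STAT3 response list had a median log2 ratio of -0.08 (-0.18 to 0.30), with Il1rn, the antagonist of the IL-1 receptor, at its upper end (131, 222 and 249 CPM) and Socs3, a feedback inhibitor of STAT3, at its lower end (785, 634 and 698 CPM). Among IL-2 receptor chains Il2rg, which other cytokine receptors share, stood at 126, 122 and 144 CPM, whereas Il2rb stood at 6.73, 15.3 and 22 CPM (ratio over mono-IL-10 2.27, 1.80 to 2.86) and Il2ra at 1.99, 5.76 and 4.05 CPM (2.90, 1.92 to 4.37). These were 2 of the 6 genes of the IL-2 receptor list, whose median log2 ratio was -0.12 (-0.41 to 1.54). Free RNA, the profile of droplets with 10 to 100 UMIs, held Il2rb at 269 CPM in the IL-10/2-Trikine library, far above the members. Stat5a stood at 18.7, 15.8 and 17.5 CPM and Stat5b at 62.3, 46.7 and 49.7 CPM. In the STAT5 response list the median was 0.09 (-0.22 to 1.04), with 2 of 10 genes at least 2-fold higher. These were Cish, a feedback inhibitor induced by STAT5 (4.17, 11.0 and 11.2 CPM, ratio 2.63, 1.97 to 3.49), and Socs1 (ratio 2.06, 1.88 to 2.25). In free RNA Socs1 stood at 51.9, 89.0 and 102 CPM, and in T cell barcodes at 90.8, 119 and 149 CPM. The part of either in the Socs1 result was not tested.

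Type I interferon genes were lower with IL-10/2-Trikine than with mono-IL-10, with a median log2 ratio of -0.22 (-0.33 to -0.02) and 26 of 33 genes below 0, against 49.3% of all genes. From 50 to 100 C1q UMIs per 10000 the median was -0.07 (-0.19 to 0.03). Irf7, a transcription factor of that response, stood at 109, 77.7 and 111 CPM and Ifit2, an antiviral effector, at 53.2, 39.9 and 50.5 CPM. The exceptions included Ifi27l2a (148, 198 and 152 CPM), Isg15 (311, 379 and 520 CPM) and Ly6a, the most abundant gene of the list (430, 521 and 534 CPM). The interferon-gamma list stood at a median of 0.10 (-0.06 to 0.19). MHC class II genes had a median of -0.08 (-0.32 to 0.06), MHC class I genes 0.06 (-0.01 to 0.15), and lysosome genes -0.05 (-0.12 to 0.13). Oxidative phosphorylation genes were shifted slightly, with a median of 0.20 (0.15 to 0.22) and 29 of 30 genes above 0.

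The genes with the lowest ratios included Hspa1b and Hspa1a and genes that were also abundant in the free RNA of the mono-IL-10 library. The heat-shock protein genes Hspa1b and Hspa1a, near-identical copies whose reads cannot be firmly assigned, stood at 165, 54.1 and 142 CPM and at 135, 64.1 and 149 CPM. The list of immediate-early and heat-shock genes went the other way. Its median log2 ratio was 0.15 (-0.01 to 0.36), with 16 of 22 genes above 0 and 2 at least 2-fold lower. Sox5, a transcription factor, stood at 582, 306 and 490 CPM in members and at 567, 62.5 and 306 CPM in free RNA. Tgfbr1, a TGF-beta receptor, stood at 519, 311 and 411 CPM in members and at 495, 72.1 and 255 CPM in free RNA. The droplets that give the free RNA numbered 145814, 148677 and 131632. They held 7732551, 3136020 and 8669762 UMIs, the fewest with IL-10/2-Trikine, the library shared by both comparisons. Free RNA went the same way as the members for 11 of the 12 lowest and 10 of the 12 highest genes, and its part in the result was not tested.

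Transcripts of NK and T cells differed too. Gzma, a granzyme of cytotoxic lymphocytes, stood at 45.6, 241 and 275 CPM in members and at 1086, 4489 and 5552 CPM in free RNA. The 12 NK cell genes summed to 180, 519 and 611 CPM in members and to 3273, 9020 and 11166 CPM in free RNA, with none of the 12 at 0. The 12 T cell genes outside the gate summed to 57.6, 74.1 and 97.6 CPM. Of 8 neutrophil genes, which summed to 131, 181 and 112 CPM, Ly6g had 0 UMIs, Csf3r stood at 102, 82.7 and 89.1 CPM and S100a8 at 8.31, 37.3 and 13 CPM. The median log2 ratio of the neutrophil genes over mono-IL-10 was 1.24 (-0.31 to 3.14), with 4 of 7 measured at least 2-fold higher. In the combination over IL-10/2-Trikine it was -1.41 (-3.39 to 0.11), with 4 of 6 at least 2-fold lower. Of 10 dendritic cell genes, which summed to 54.2, 46.8 and 43.4 CPM, Xcr1 made up 37.0, 23.7 and 26.5 CPM. The 8 B cell genes outside the gate summed to 364, 246 and 229 CPM, most of it Ighm. The 6 mast cell and basophil genes summed to 1.18, 1.77 and 0.668 CPM and the 12 KP1 tumor genes to 18.7, 26.4 and 21.6 CPM, and of 7 stromal genes only Pecam1 exceeded 12 CPM. The part of these cells and of free RNA in the results was not tested.

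The combination against IL-10/2-Trikine alone asks what PD-1 blockade adds, if the antibody was given to the combination only, as the titles and treatment labels have it. Of 13188 genes, 257 were at least 2-fold higher in the combination (1.95%) and 193 at least 2-fold lower (1.46%). The median log2 ratio over all genes was 0.01, with 51.3% of genes above 0. This comparison uses the same IL-10/2-Trikine library as the previous one, so these comparisons are not independent.

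Interferon genes were higher in the combination across nearly the whole of both lists. The interferon-gamma response list had a median log2 ratio of 0.59 (0.35 to 0.69) with 29 of 30 genes above 0, and the type I list 0.35 (0.25 to 0.41) with 32 of 33 above 0. Single differences were modest, and 1 gene of each list was at least 2-fold higher. The exceptions were Ciita, the master regulator of MHC class II (107, 102 and 84.8 CPM), and Ifi27l2a (148, 198 and 152 CPM). Against mono-IL-10 the type I list was lower with IL-10/2-Trikine (-0.22, -0.33 to -0.02). In the combination Irf7 and Ifit2 stood near their mono-IL-10 levels given above, while Isg15 and Oasl1 stood above theirs. List medians of the combination over mono-IL-10 were not computed. Free RNA had the same direction for 12 of the 12 genes with the highest ratio here. In it Cxcl9 stood at 105, 39.9 and 123 CPM, Gbp2 at 102, 73.3 and 161 CPM, Iigp1 at 101, 51.7 and 131 CPM and Oasl1 at 58.3, 7.33 and 62.3 CPM. Its part in the result was not tested. Ratios of Gbp family members are uncertain, since near-identical copies can share reads.

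Cxcl9, which draws CXCR3-bearing T cells, stood at 440, 361 and 607 CPM, a ratio of 1.68 (1.62 to 1.75) for the combination over IL-10/2-Trikine. It was detected in 22.5%, 21.5% and 31.2% of thinned members, against 0.921%, 0.742% and 1.17% of T cell barcodes. Gbp2, an interferon-induced GTPase with an ISRE core before its start, stood at 204, 224 and 376 CPM, a ratio of 1.67 (1.59 to 1.76). Gbp2 was detected in 25%, 29.0% and 37.4% of thinned members, with T cell barcodes at 18.0%, 15.6% and 21.9%. Iigp1, an immunity-related GTPase, stood at 112, 134 and 257 CPM, a ratio of 1.91 (1.80 to 2.04). Both mono-IL-10 and IL-10/2-Trikine were below the combination for each of the 3 genes.

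Socs1, which restrains interferon signaling, stood at 45.0, 92.7 and 166 CPM, the highest level in the combination. Its levels in free RNA and in T cell barcodes, given above, were also highest there. Serpina3g, a protease inhibitor from a multigene family, stood at 119, 90.7 and 161 CPM. Oasl1, an oligoadenylate synthetase-like protein, stood at 93.1, 93.0 and 157 CPM, and Isg15, a ubiquitin-like modifier, at 311, 379 and 520 CPM. Cd274, which encodes PD-L1, stood at 346, 322 and 375 CPM. Ccl5 stood at 185, 258 and 473 CPM in members but at 2356, 2131 and 7016 CPM in free RNA, and its part was not tested.

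Interferon genes stood higher in the combination at every C1q level. In bands of under 50, 50 to 100 and over 100 C1q UMIs per 10000 the interferon-gamma list had medians of 0.62, 0.46 and 0.56 and the type I list 0.38, 0.32 and 0.42. Weighting cells equally gave 0.38 and 0.28. The medians were also above 0 in neighboring cells of the same libraries: 0.34 and 0.48 in cycling C1q macrophages, 0.63 and 0.38 in C1q-low monocytes (1777 and 1319 barcodes with IL-10/2-Trikine and the combination), and 0.51 and 0.51 in barcodes with both C1q and T cell UMIs. No test of a difference between these cells was possible.

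**Figure D5:**
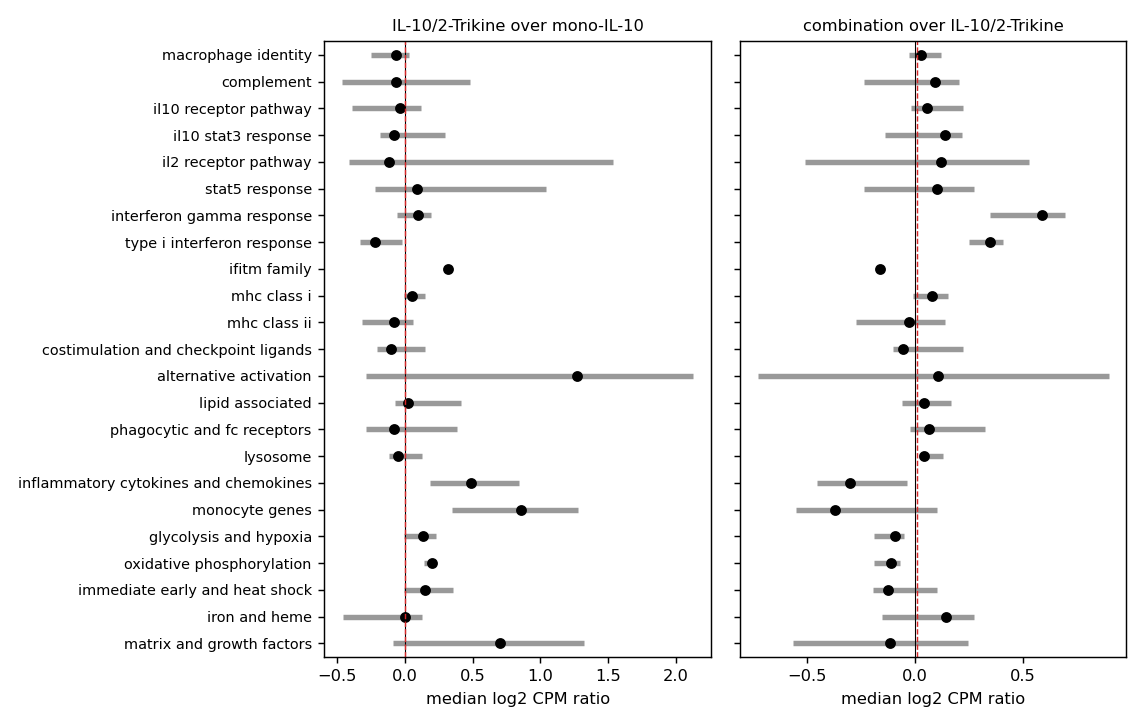
Median log2 CPM ratio of each gene list (dot) with its order-statistic interval (bar, where the list is long enough) for IL-10/2-Trikine over mono-IL-10 (left) and the combination over IL-10/2-Trikine (right). The dashed line is the median of all genes (0.00 and 0.01). The interferon-gamma list stands at 0.59 on the right and at 0.10 on the left, and the alternative activation list at 1.27 on the left with a wide interval.

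Inflammatory cytokines and chemokines had a median log2 ratio of -0.30 (-0.45 to -0.04), with 18 of 25 genes below 0 and 4 at least 2-fold lower. In the 3 C1q bands it was -0.33 (-1.32 to -0.09), -0.18 (-0.41 to 0.06) and -0.16 (-0.28 to 0.15). Cxcl2 had a ratio of 0.382 (0.367 to 0.398), and its share among thinned members was 11.3%, 16.4% and 10.1%, against 1.81%, 1.77% and 0.574% of T cell barcodes. Saa3 had a ratio of 0.344 (0.325 to 0.365), and its level was highest with mono-IL-10. Ear2 had a ratio of 0.387 (0.350 to 0.428), Mgl2 0.314 (0.273 to 0.360) and Retnla 0.520 (0.488 to 0.554), the last 2 resting on few cells. F13a1, a coagulation factor of the alternative activation list, stood at 37.3, 71.4 and 37.0 CPM, and Plxdc2 at 63.9, 123 and 67.9 CPM. Among members with over 100 C1q UMIs per 10000, 43.9% to 56.0% of each library, the log2 ratio turned to 0.87 for Saa3 (9.28 against 17.0 CPM), 1.66 for Mgl2 (1.41 against 4.44 CPM), 4.58 for Retnla (1.41 against 33.7 CPM) and 0.27 for Plxdc2, and from 50 to 100 that of F13a1 was 0.06.

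The alternative activation list as a whole had no common direction in the combination: 8 of 15 genes were above 0 and the median was 0.10 (-0.73 to 0.90). Ccl24 and Fabp5 had ratios of 1.07 and 0.974 over IL-10/2-Trikine. Monocyte genes had a median of -0.37 (-0.55 to 0.10) with 9 of 13 below 0, and in the 3 C1q bands -0.07, 0.12 and -0.19. Glycolysis and hypoxia genes were slightly lower, with a median of -0.09 (-0.19 to -0.05) and 23 of 24 genes below 0, as were oxidative phosphorylation genes, with a median of -0.11 (-0.19 to -0.07) and 26 of 30 below 0. The IL-10 and STAT3 response list (0.14, -0.14 to 0.22), the STAT5 list (0.10, -0.24 to 0.27), MHC class II genes (-0.03, -0.27 to 0.14) and lysosome genes (0.04, 0.02 to 0.13) stayed near the median of all genes. Hspa1b and Hspa1a, lowest with IL-10/2-Trikine, had the highest ratios here, 2.62 (2.38 to 2.89) and 2.32 (2.12 to 2.54). These ratios varied widely with the choice of members: over the alternatives the log2 ratio of Hspa1b in the combination ran from 0.42 to 2.62 and that of Hspa1a from 0.18 to 1.87, and over mono-IL-10 they ran from -3.10 to -0.32 and from -1.99 to -0.01. The smallest differences were those of members with under 50 C1q UMIs per 10000. The list of immediate-early and heat-shock genes had a median of -0.13 (-0.20 to 0.10) in the combination, with 13 of 22 genes below 0.

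Most of the ranked genes had the same direction in neighboring cells. Of the 12 genes with the highest ratio over mono-IL-10, 12 were also higher with IL-10/2-Trikine in cycling C1q macrophages and 12 in C1q-low monocytes, and of the 12 with the lowest ratio 12 and 9 were also lower, with Pltp, Fmnl3 and Tgfbr1 turning in the monocytes. In the combination the same direction was seen for 12 and 10 of the 12 highest genes and for 12 and 11 of the 12 lowest. Ccl24, Arg1, Fabp5 and Nrg1 stood near or above their IL-10/2-Trikine level in members of the combination, but not in all neighboring cells. Their log2 ratios over IL-10/2-Trikine were -4.66 (189 UMIs in the pair), -1.91, -1.07 and -0.79 in cycling C1q macrophages. In barcodes with both C1q and T cell UMIs they were -0.32, -0.81, -0.72 and -0.29, and in C1q-low monocytes 0.60, 0.08, 0.73 and 0.47. The C1q-low monocytes numbered 1320, 1777 and 1319. The monocyte list's median with IL-10/2-Trikine over mono-IL-10 was 0.96 in cycling C1q macrophages but -0.20 in C1q-low monocytes, and the inflammatory list's 0.48 and -0.36. That of the alternative activation list was 1.97 (0.11 to 6.46) and 0.07 (-1.32 to 2.62), and 1.59 (0.18 to 3.63) in barcodes with both C1q and T cell UMIs. In the combination over IL-10/2-Trikine it was -1.91 (-4.66 to 0.15), 0.22 (-0.23 to 0.60) and -0.72 (-1.51 to -0.02) in these gates. These cells come from the same libraries and share their free RNA.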

How the data were processed

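CD45+ cells sorted from KP1 tumors were profiled with 10x 3′ chemistry, 1 library per group, taken from titles and treatment labels. Raw UMI counts per gene and barcode were deposited, empty droplets included, made by the authors with Cell Ranger. Version 8.0.0 stands in the headers and mm10 in the submitters' processing notes, while the methods name other versions, so no gene coordinates are read from the counts. Total UMIs were 158570946, 197176873 and 175794959. Members and gene lists were chosen with earlier results of these data known. Reads in introns were counted, so overlapping genes may share them. Member UMIs were summed per library and given as CPM. Ratios have exact conditional binomial intervals, levels Poisson, shares Clopper-Pearson and list medians order-statistic intervals. Those of ratios and medians were checked on data simulated as independent draws, which does not cover UMIs clustered in few cells. The ranked genes are the 12 highest and 12 lowest ratios per comparison among genes that reached 50 CPM in 1 library of the pair and 20 UMIs over both, without mitochondrial, ribosomal, antigen receptor, hemoglobin, Y-linked, gate and unnamed genes and Xist. List examples were to come from the 2 highest, 2 lowest and most abundant genes of a list. The text names part of them, which part was decided after their values were seen, as was every other gene named. Possible doublets were kept in the reported values. Scrublet, run in scanpy 1.11.5, marked 13.7% and 17.2% of kept barcodes with mono-IL-10 and IL-10/2-Trikine but 1 barcode in the combination, where it had not worked. Other tools were numpy 2.4.6, scipy 1.17.1, pandas 2.3.3, matplotlib 3.10.9 and edgeR 4.0.16.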

Additional observations from a re-analysis of the deposited data

How the results depend on the processing

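Under every alternative gate or denominator that was run, the share ratios kept their direction, but none of them raised the T cell limit. With at least 10 C1q UMIs per 10000 in place of 5 UMIs the ratios were 0.359 (IL-10/2-Trikine over mono-IL-10) and 2.51 (combination over IL-10/2-Trikine). The first was 0.485 without members with 2 or more UMIs of other lineages and 0.382 with the gate applied after thinning, and the second was 1.78 with no T cell UMI. Counts of genes past 2-fold depended on depth and filters. With at least 100 UMIs in the pair they were 124 higher and 62 lower with IL-10/2-Trikine and 38 and 32 in the combination; with at least 1 UMI 2513, 3631, 3436 and 2151; after subtracting 10% free RNA 637, 567, 571 and 463. Genes higher with IL-10/2-Trikine numbered 215 without other-lineage members, 198 after thinning, and 161, 248 and 227 in the 3 C1q bands, and lower ones 212 in the middle band. In the combination 453 were higher with cells weighted equally, and 118, 123, 113, 125 and 117 were lower with no T cell UMI, without other-lineage members, after thinning, and in the middle and upper bands. Chosen after seeing the data, the C1q bands moved the IL-10 and STAT3 list to -0.19 and 0.24 (upper band), the type I list in the combination to 0.42 (upper band), and the monocyte list to 0.23 and 0.30 over mono-IL-10 (lower and middle bands) and to 0.12 in the combination (middle band). Directions that turned, on the log2 scale, were Mycl over mono-IL-10 (-0.0549 without other-lineage members) and, in the combination, Mycl (0.0159 with no T cell UMI, 0.268 without other-lineage members, 0.0496 in the upper band), Mgl2 (1.66), Saa3 (0.87), Retnla (4.58) and Plxdc2 (0.27) in the upper band, Ccl7 (0.00378) and F13a1 (0.0581) in the middle band, and the lysosome list (-0.0257) in the lower band; the cause was not tested. Medians of lists whose interval held 0 crossed it under some alternatives, among them the IL-10 and STAT3, STAT5, alternative activation (combination), interferon-gamma (over mono-IL-10), monocyte (combination) and cell cycle (combination) lists, and carry no direction. Removing the barcodes with the 15% highest Scrublet scores, also chosen after seeing the data, gave share ratios of 0.434 and 2.07. Removing called doublets gave a share ratio of 0.446 and 302 higher and 324 lower genes for IL-10/2-Trikine over mono-IL-10; for the combination it is not given, since the caller had not worked there. No paired analysis was possible because each group is 1 library. Depth limits genes at few UMIs, and cells that hold most of a gene's UMIs limit Retnla, Mgl2, Arg1, Ccl24, Mmp12 and Mycl.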
